A study of Mus musculus with 9 samples.

Results

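The 10 genes described here encode structural proteins of the lens: the alpha crystallins Cryaa and Cryab, the beta crystallins Cryba1, Cryba4, Crybb1, Crybb2 and Crybb3, the beaded filament proteins Bfsp1 and Bfsp2, and Mip, the main membrane protein of lens fibre cells. They were chosen by name, with their higher values in SJL already in view, and were drawn from 18193 genes that had a probe set with 1 gene symbol in the platform annotation. The 10 genes had 13 probe sets, 8 of the genes having 1 each, and a gene with several was read on the one that was brightest on average. RNA from the central cornea of adult male mice was measured on Affymetrix arrays in 3 inbred strains, SJL/J (SJL, labelled thick cornea), C57BLKS/J (KS, labelled thin cornea) and C57Bl/6J (B6, no thickness given), with 3 arrays a strain. Mice of every strain were 4 months old, and a sample pooled 2 punches of 2 mm, 1 from each eye of a mouse. The punches held every layer of the central cornea and carried no treatment or engineered allele in the labels, so thickness and strain cannot be told apart.

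Crystallins fill the cytoplasm of lens fibre cells, where they keep the lens clear. The alpha crystallins are small heat shock proteins that hold unfolding proteins in solution, and Cryab is also made in other tissues such as heart and skeletal muscle. The beta crystallins belong to another protein family that the lens holds together with the gamma crystallins. Bfsp1 and Bfsp2, also called filensin and phakinin, assemble the beaded filament, a cytoskeletal structure of lens fibre cells, and Mip is a water channel of the aquaporin family. Lens lies behind the cornea in the eye, so lens transcripts in a corneal sample raise the question of lens material carried over with the punch.

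Signal from these genes did not come as a group. Cryab was abundant on all 9 arrays, Bfsp1 gave a low signal on all 9 with higher values in SJL, and Cryba4 reached 12.9 to 77.3 in SJL and at most 8.10 in the other strains. The other 7 genes, Cryaa, Cryba1, Crybb1, Crybb2, Crybb3, Bfsp2 and Mip, lay between 4.15 and 5.02 on every array. An intensity under 16 is taken here as the lower end of the scale, where 54.6% of all values lay, and a level there is an upper bound rather than a measured amount. Of all 18193 genes, 40.3% lay below 16 on all 9 arrays. Per array, the median of these 7 genes ran from 4.58 to 4.61 in SJL, from 4.50 to 4.59 in KS and from 4.53 to 4.66 in B6. At that end of the scale small gaps between arrays have no order, so these values give only the bound for the 7 genes.

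**Figure D1:**
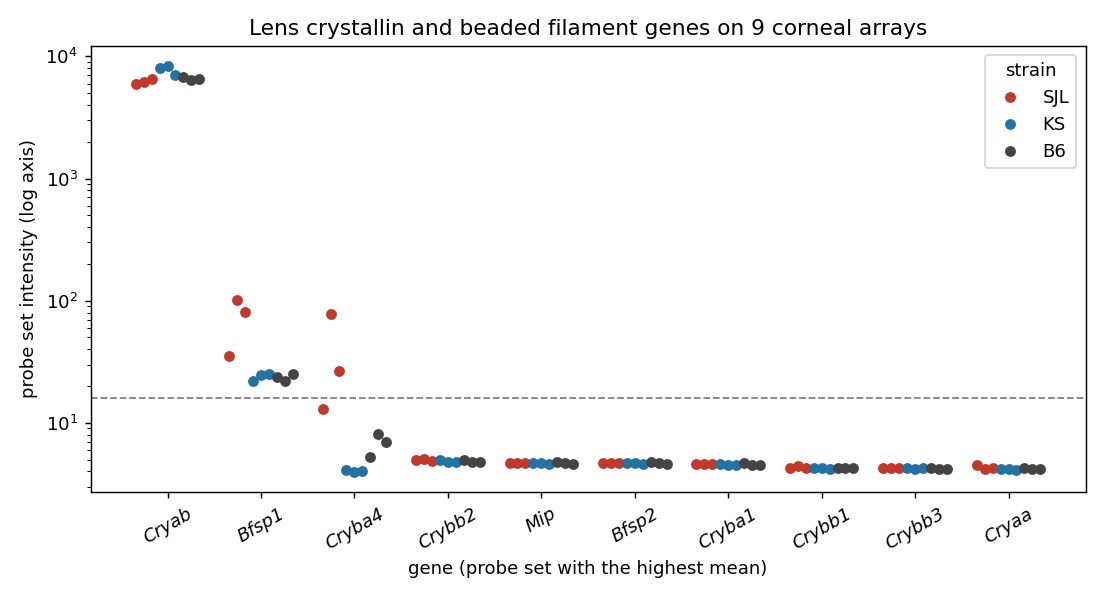
Probe set intensity (log axis) of each of the 10 genes on the 9 arrays, SJL in red, KS in blue and B6 in dark grey, with a dashed line at 16. Cryab lies between 5939 and 8319, Bfsp1 and Cryba4 are higher in SJL, and the other 7 genes lie between 4.15 and 5.02 on all arrays.

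Corneal transcripts were abundant on the same arrays. Krt12, the keratin of corneal epithelium, had an intensity of 26604 ± 628 in SJL, 26808 ± 388 in KS and 28462 ± 777 in B6 (SD, n = 3 each), and Aldh3a1, the enzyme sometimes called a corneal crystallin, had 24014 ± 718 in SJL, 23790 ± 378 in KS and 24742 ± 414 in B6. Lens fibre markers were then summed over a wider list. Of 27 listed genes 22 were on the array, and 19 of them lay below 16 on all 9 arrays. Without Cryab, the remaining 21 genes summed to 136 to 267 in SJL, 115 to 116 in KS and 116 to 118 in B6, so every SJL array was above the others. Bfsp1 and Cryba4 were the 2 of the 21 that were above 16 on any array, and without them the sum was 87.2 to 87.9 in SJL, 86.7 to 88.5 in KS and 85.9 to 88.7 in B6, over genes that all lay at the lower end. The 12 lens fibre genes on the array that are not among the 10, which included the gamma crystallins Cryga, Crygb, Crygd, Crygf, Crygn and Crygs, the fibre membrane protein Lim2 and the lens connexin Gja3, lay between 3.85 and 6.25. None of those 12 was high enough to be tested in any contrast.

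**Figure D2:**
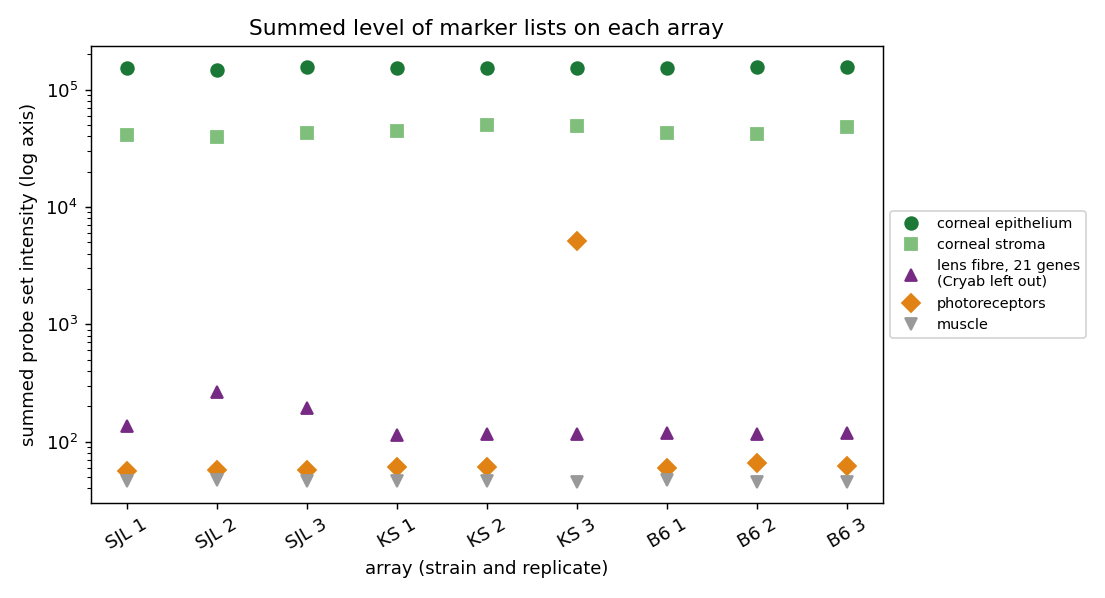
Summed probe set intensity (log axis) of 5 marker lists on each of the 9 arrays, in the order SJL, KS, B6. The 21 lens fibre genes other than Cryab sum to 136 to 267 in SJL and 115 to 118 in KS and B6. They include Bfsp1 and Cryba4, chosen with their higher SJL values in view. Without those genes the sum is 87.2 to 87.9 in SJL, 86.7 to 88.5 in KS and 85.9 to 88.7 in B6. The photoreceptor list reaches 5079 on KS replicate 3, against 56.1 to 65.2 on the other arrays.

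KS replicate 3 stood apart by its photoreceptor transcripts, whose summed intensity was 5079 there and 56.1 to 65.2 on the other 8 arrays. The 7 lens genes at the lower end had a median of 4.50 on KS replicate 3, which is only a bound, as on the other arrays. Bfsp1 was at 25.1 and Cryba4 at 4.07 on that array, both within the range of the other KS and B6 arrays. Prox1, a transcription factor of lens fibres that the retina also uses, had 1 of its 3 probe sets at 9.07 on KS replicate 3 and at 4.79 to 5.05 elsewhere. The rest were at 4.39 and 5.11 on KS replicate 3, the lowest value of each. All 3 lay below 16 on every array, where a level is only a bound.

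Cryba4, a beta crystallin of acidic type, had an intensity of 12.9, 77.3 and 26.5 in SJL replicates 1 to 3, against 4.11, 3.98 and 4.07 in KS and 5.28, 8.10 and 6.95 in B6. All 3 SJL arrays lay above all 6 others, with SJL replicate 1 still below 16. The mean was 38.9 ± 33.9 in SJL, 4.06 ± 0.0661 in KS and 6.78 ± 1.42 in B6 (SD, n = 3 each). On the scale log2(intensity + 10), which understates the change of low genes, SJL minus KS was 1.57 (SE 0.40) and SJL minus B6 was 1.32 (SE 0.40). These differences are descriptive, because the genes were proposed for them, and Cryba4 passed the filter on dim probe sets, a mean of 4.17 on that scale, through SJL, where it averaged 5.38 against 3.81 in KS and 4.07 in B6. Without SJL replicate 2 the differences were 1.04 from KS and 0.79 from B6. The 1 probe set of Cryba4 leaves no second measurement of the gene.

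Bfsp1, the filensin gene, was at 35.1, 102 and 80.5 in SJL, against 22.0, 24.8 and 25.1 in KS and 23.6, 22.1 and 25.1 in B6. Every SJL array was above every KS and B6 array, while KS and B6 overlapped. The mean was 72.6 ± 34.2 in SJL, 23.9 ± 1.72 in KS and 23.6 ± 1.54 in B6 (SD, n = 3 each), a ratio of 3.03 over KS and 3.08 over B6. On the log2 scale SJL minus KS was 1.18 (SE 0.28) and SJL minus B6 was 1.20 (SE 0.28). Bfsp2, which encodes the partner of filensin in the beaded filament, lay between 4.63 and 4.74 on all 9 arrays. The 2 genes of the beaded filament thus gave signal in different ways on these probe sets, with only Bfsp1 above the lower end.

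Among the 3 genes that were tested, Cryba4 and Bfsp1 had SJL arrays that did not overlap those of KS on the higher side, as did 18.1% of all genes tested, and the same 2 genes did not overlap B6 on the higher side, as did 17.9%. Cryab did not overlap KS on the lower side, as did 17.4% of all genes tested. The counts for Cryba4 and Bfsp1 follow from the choice of the genes and are not evidence of a difference. Cryab lay on the other side from that choice, and its count is likewise only a description. The contrasts of SJL with KS and of SJL with B6 share the SJL arrays. Of the 7 genes at the lower end, Cryaa also had SJL arrays above those of KS, at 4.24 to 4.50 against 4.15 to 4.20, a gap within the range where levels are bounds.

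**Figure D3:**
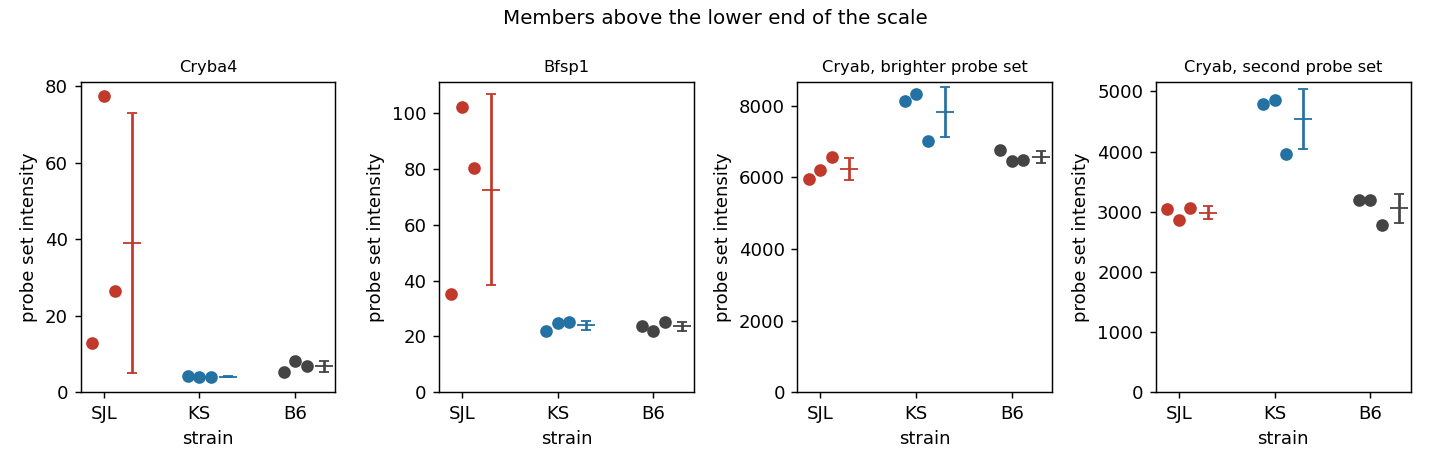
Probe set intensity of Cryba4, Bfsp1 and the 2 brighter probe sets of Cryab (linear axes from 0) in SJL, KS and B6, with 1 point per array and a bar for the mean ± SD (n = 3). SJL lies above both other strains for Cryba4 and Bfsp1, and KS lies above both other strains for both Cryab probe sets.

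SJL replicate 2 was the highest and SJL replicate 1 the lowest of its strain for both Cryba4 and Bfsp1. RNA quality moved in the same order within SJL: the log2 ratio of 3' to 5' control signal for Gapdh was 0.81, 1.17 and 0.92 in SJL replicates 1 to 3. It was 0.87 to 0.93 in KS and 0.84, 0.73 and 1.55 in B6, and on B6 replicate 3, with the highest ratio of all, Bfsp1 was at 25.1 and Cryba4 at 6.95. Some summed marker lists of other tissues also differed with strain, mostly through their brightest gene. The summed conjunctival list, with 5 of its 6 genes above 16 on some array, was 6526 to 8473 in SJL, 14511 to 15926 in KS and 13332 to 15629 in B6. The summed list of inner retina and Muller glia, of which Apoe was the brightest gene and 4 of 9 genes were below 16 throughout, was 740 to 853 in SJL, 5202 to 6545 in KS and 2519 to 3274 in B6. Krt13, the brightest conjunctival gene, was at 3216 to 4307 in SJL and 11014 to 13091 in KS and B6, and Krt4 was also lower in SJL. Krt19 was higher on every SJL array, at 3061 to 3761 against 1847 to 2964, while Krt8 and Krt18 were above B6 only. Apoe was at 408 to 459 in SJL, 4838 to 6147 in KS and 1921 to 2764 in B6, with Rbpms also lower in SJL. Slc1a3 was at 211 to 315 in SJL, 175 to 213 in KS and 247 to 395 in B6. The part of RNA quality and of these other tissues in the Cryba4 and Bfsp1 values was not tested. In a bulk sample, more cells of a type and more RNA per cell cannot be told apart.

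Cryba4 and Crybb1 are neighbours on chromosome 5 on opposite strands. The start sites of the windows used here lie 3302 bases apart and point away from each other in GRCm38.p6, while the full RefSeq spans of both genes overlap. Only Cryba4 gave signal, and Crybb1 lay between 4.22 and 4.45 on all arrays. Their promoter windows are shown with those of Bfsp1, the other gene with higher values in SJL, and of Cryaa, at the lower end on every array, because these 4 cover the genes with and without signal. Each window runs from 250 bases before to 50 after the start site in the RefSeq table of build GRCm38.p6, which is the C57BL/6J sequence and not that of SJL. Capitals mark 2 motifs searched on both strands, TGCTGAC, part of the site bound by Maf proteins in lens promoters, and TATAA, the core of the TATA box. The windows are Cryba4 (chr5:112252469-112252768, minus strand), Crybb1 (chr5:112255570-112255869, plus strand), Bfsp1 (chr2:143863124-143863423, minus strand) and Cryaa (chr17:31677681-31677980, plus strand).
Cryba4: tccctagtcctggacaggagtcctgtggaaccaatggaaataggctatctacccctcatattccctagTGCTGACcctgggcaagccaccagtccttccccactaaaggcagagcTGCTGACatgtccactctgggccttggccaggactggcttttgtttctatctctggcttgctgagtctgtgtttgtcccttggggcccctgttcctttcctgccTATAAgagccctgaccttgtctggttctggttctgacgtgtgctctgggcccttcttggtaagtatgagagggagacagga
Crybb1: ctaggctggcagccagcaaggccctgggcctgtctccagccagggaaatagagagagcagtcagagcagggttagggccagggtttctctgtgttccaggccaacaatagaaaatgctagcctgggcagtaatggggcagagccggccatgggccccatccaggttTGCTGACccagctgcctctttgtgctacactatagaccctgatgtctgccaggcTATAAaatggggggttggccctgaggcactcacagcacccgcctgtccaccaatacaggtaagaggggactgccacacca
Bfsp1: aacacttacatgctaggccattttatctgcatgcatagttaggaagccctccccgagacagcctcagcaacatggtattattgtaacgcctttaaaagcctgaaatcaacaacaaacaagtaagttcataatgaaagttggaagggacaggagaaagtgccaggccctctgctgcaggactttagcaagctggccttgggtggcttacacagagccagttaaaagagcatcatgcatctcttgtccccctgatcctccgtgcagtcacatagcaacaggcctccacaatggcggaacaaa
Cryaa: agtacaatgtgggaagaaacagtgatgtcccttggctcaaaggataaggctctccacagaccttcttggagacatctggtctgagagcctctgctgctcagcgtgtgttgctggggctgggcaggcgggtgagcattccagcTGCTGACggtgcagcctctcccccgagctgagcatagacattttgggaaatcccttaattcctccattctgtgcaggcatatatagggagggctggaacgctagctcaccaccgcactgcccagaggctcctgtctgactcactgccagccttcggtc

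The Cryba4 window held 2 copies of TGCTGAC, which began 182 and 135 bases before the start site, and a TATAA that began 31 bases before it. The Crybb1 window held TGCTGAC at 84 bases and TATAA at 30 bases before its start site. Cryaa had 1 TGCTGAC at 108 bases and no exact TATAA, and the Bfsp1 window had neither run of letters. Only the exact run TATAA was searched, so a variant such as the TATATA in the Cryaa window was not counted. Of the 10 genes 9 had a window in the table, and 4 of those 9 held TGCTGAC, against 4.67% of all 32851 windows, while 5 held TATAA, against 24.9%. The TATAA began 23 to 31 bases before the start site in Cryba1, Cryba4 and Crybb1. In Mip it began 3 bases before the start site, and in Crybb2 it lay 150 bases before it on the other strand. Genes with both motifs were thus found with signal in SJL (Cryba4) and at the lower end in every strain (Crybb1 and Cryba1). A match in a window is a description of its letters and shows no binding.

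Cryab, the alpha B crystallin, was highest in KS. Its brighter probe set was at 5939, 6206 and 6560 in SJL, against 8117, 8319 and 7017 in KS and 6768, 6450 and 6478 in B6. All KS arrays lay above all SJL and all B6 arrays, as did 17.8% of all genes tested in KS against B6, while SJL and B6 overlapped. The means were 6235 ± 311 in SJL, 7818 ± 701 in KS and 6566 ± 176 in B6 (SD, n = 3 each), so the SJL value was the lower one of the labelled thick and thin strains. SJL minus KS was -0.32 (SE 0.09) and SJL minus B6 was -0.08 (SE 0.09) on the log2 scale. A second probe set gave 2986 ± 112 in SJL, 4539 ± 497 in KS and 3056 ± 240 in B6, with SJL minus KS at -0.60 (SE 0.11). The third lay between 4.78 and 5.12 on all 9 arrays and measured nothing above the lower end.

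The difference of KS from B6 takes its means from no SJL array and could be tested, in a fit whose error is shared by the 3 strains. By limma, 0 of the 3 genes tested were called in KS against B6 at an adjusted p under 0.05, and 1 had an unadjusted p under 0.05; 6.27% of all genes tested were called in that contrast. That gene was Cryab, with KS minus B6 at 0.25 (SE 0.09, limma adjusted p = 0.189) on its brighter probe set. The second Cryab probe set differed by 0.57 (SE 0.11) and was called (limma adjusted p = 0.0179), as were 5.71% of all probe sets tested, and the 3 KS arrays were above the 3 B6 arrays on both. That call was lost without B6 replicate 3 (adjusted p = 0.0539), KS replicate 1 (0.0640) or KS replicate 2 (0.0829). With the mean of the probe sets of the gene Cryab was called in KS against B6 (limma adjusted p = 0.0367), while over the other alternatives its adjusted p ran from 0.0792 to 0.496. Bfsp1 differed by 0.01 (SE 0.28, limma adjusted p = 0.988), less than its error. Cryba4 was in the test through its SJL arrays, and its standard error shares their spread. Its difference was -0.25 (SE 0.40), with a limma adjusted p of 0.786, and of 0.175 in a fit of only the 6 KS and B6 arrays. The KS arrays lay below the B6 arrays for Cryba4, as they did for 13.4% of all genes tested, with both strains below 16.

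Markers that could move with Cryab were read on the same arrays. The 9 skeletal and smooth muscle genes, from a tissue rich in Cryab, lay below 16 on all arrays and summed to 46.2 to 46.6 in SJL, 45.2 to 46.4 in KS and 45.2 to 47.2 in B6. The corneal stroma list of 6 genes, all of them above 16 on some array, summed to 39754 to 42417 in SJL, 44525 to 50301 in KS and 42215 to 47748 in B6, so SJL and KS did not overlap there either. The list did not move as 1: Dcn, Col5a1 and Ptgds were lower on every SJL array than on every KS array, while Kera, Lum and Col1a1 overlapped. Dcn was at 13324 to 14534 in SJL and 16805 to 19066 in KS. Kera was at 11297 to 12171 in SJL and 11129 to 12035 in KS, and Lum at 4687 to 5209 and 4793 to 4939. The part of the stroma in the Cryab values was not tested. Without KS replicate 3, the array with photoreceptor transcripts, SJL minus KS for Cryab was -0.40 and KS minus B6 was 0.32 (limma adjusted p = 0.140).

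Genes of small heat shock proteins related to the alpha crystallins, with that of the cochaperone Bag3, made up a list of 8 genes, all on the array. Of these, 4 were tested and 1 was called, Hspb8, in each contrast. Hspb8, a small heat shock protein that works with Bag3 in clearing misfolded proteins, was at 9.27, 9.20 and 9.56 in SJL, against 40.1, 43.1 and 39.1 in KS and 4.65, 4.53 and 4.53 in B6. The 3 strains did not overlap, and only the KS arrays were above 16. Hspb8 passed the filter on dim probe sets through those KS arrays. With no filter, 1 of the 8 genes was still called in each contrast. Limma gave a log2 difference of -1.39 for SJL minus KS (SE 0.07, adjusted p = 5.88e-06), where 8.08% of all genes tested were called lower. SJL minus B6 was 0.41 (SE 0.07, adjusted p = 0.00588, both strains below 16, and 0.158 with a pseudocount of 50), where 8.39% of all genes tested were called higher. KS minus B6 was 1.80 (SE 0.07, limma adjusted p = 2.17e-06), where 3.40% of all genes tested were called higher. The other 2 Hspb8 probe sets lay between 4.25 and 4.53 on all arrays. Hspb1, the widely expressed small heat shock protein of stress responses, was abundant and not called, at 12634 ± 987 in SJL, 11715 ± 569 in KS and 12426 ± 2347 in B6 (SD, n = 3 each). Bag3 was not called either, at 1461 ± 32.6 in SJL, 1385 ± 58.5 in KS and 1533 ± 198 in B6.

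Regulators that switch on crystallin genes in the lens were present in part. Of 16 listed regulators 14 were on the array, 10 lay below 16 on all arrays, among them Prox1, Sox1, Sox2, Pitx3, Foxe3 and Hsf4, and 4 were tested: Pax6, Maf, Mafg and Meis1. Limma called 0 of these 4 in each contrast, and 1 had an unadjusted p under 0.05, in SJL against B6. Of all genes tested, 14.9% were called in SJL against KS, 16.1% in SJL against B6 and 6.27% in KS against B6. With 4 genes, 0 calls is close to those shares and does not show the regulators to be unchanged. Pax6, a transcription factor that the cornea and the lens both use, was at 11282 ± 763 in SJL, 11448 ± 598 in KS and 11253 ± 637 in B6 (SD, n = 3 each). A dimmer Pax6 probe set was lower in SJL than in KS (-0.42, SE 0.09, limma adjusted p = 0.0121, and 0.0520 without KS replicate 2). The brightest differed by -0.02 (SE 0.09). The rest differed by -0.76 (SE 0.59), -0.39 (SE 0.37) and -0.15 (SE 0.12) and were not called. All Pax6 probe sets tested thus lay below 0 in SJL minus KS, with only the 1 called. They did not share 1 direction in SJL minus B6, where the called one was at -0.08 (SE 0.09). Its KS minus B6 was 0.34 (SE 0.09, limma adjusted p = 0.0591). Maf, of the family that binds the TGCTGAC run, was at 944, 635 and 541 in SJL, against 944, 1033 and 817 in KS and 1258, 1024 and 997 in B6. SJL minus B6 was -0.65 (SE 0.20, limma adjusted p = 0.0629) and SJL minus KS was -0.43 (SE 0.20, limma adjusted p = 0.206).

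**Figure D4:**
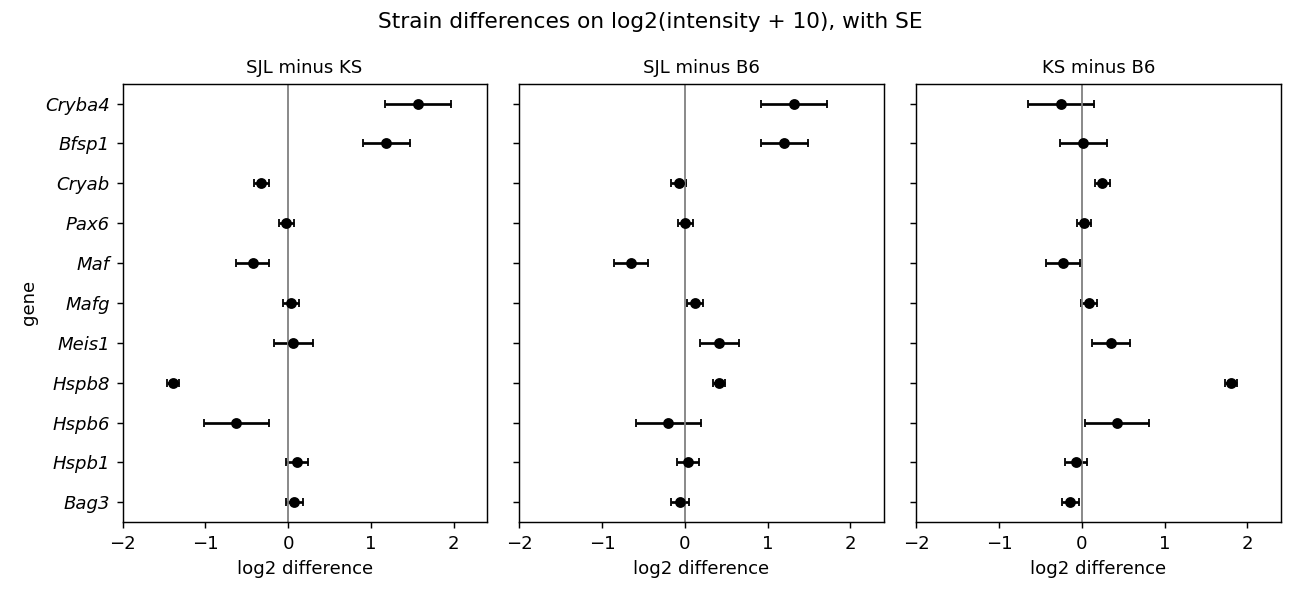
Log2 differences (SJL minus KS, SJL minus B6 and KS minus B6) on log2(intensity + 10), each with its standard error from the limma model, for the 3 lens genes tested and for the regulators and heat shock genes tested. Cryba4 and Bfsp1 lie above 0 in both SJL contrasts, Cryab below 0 in SJL minus KS, and Hspb8 has the narrowest errors.

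Genes next to the 10 on the chromosome were read for signal that might accompany them. The nearest represented genes in RefSeq order, leaving out the 10 themselves, numbered 16, of which 12 were tested. Limma called 2 of these higher and 0 lower in SJL against KS, where 6.80% of all genes tested were called higher and 14.9% in either direction. It called 0 in SJL against B6, with 2 at an unadjusted p under 0.05 and 16.1% of all genes called. In KS against B6 it called 0, also with 2 at an unadjusted p under 0.05, and 6.27% of all genes called. Both called genes flanked an alpha crystallin. 2310030G06Rik, whose RefSeq span overlaps that of Cryab, was at 443, 403 and 437 in SJL, against 294, 212 and 238 in KS (log2 difference 0.77, limma adjusted p = 0.00432), the opposite direction to Cryab. Sik1, a salt-inducible kinase after Cryaa, was at 1479, 764 and 1672 in SJL, against 95.4, 199 and 195 in KS (2.92, limma adjusted p = 0.00156), beside a Cryaa at the lower end. In B6, 2310030G06Rik was at 320, 338 and 283 and Sik1 at 463, 715 and 339. For 2310030G06Rik SJL minus B6 was 0.44 (limma adjusted p = 0.0517), just short of a call. For Sik1 it was 1.34 (limma adjusted p = 0.0540), also just short.

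Hspb2, the small heat shock gene whose span overlaps that of Cryab, lay between 5.19 and 5.32 while Cryab was abundant. Beside Cryba4, Miat lay between 4.24 and 4.34, and the sulfotransferase gene Tpst2, after Crybb1, was at 350 in SJL, 249 in KS and 270 in B6 on average (SJL minus KS 0.44, limma adjusted p = 0.212). Beside Bfsp1, Dstn, which encodes the actin-severing protein destrin, was at 12074 in SJL, 11506 in KS and 11925 in B6 on average (SJL minus KS 0.07, limma adjusted p = 0.614). By RefSeq, 3 other genes overlap the span of Bfsp1, 2 overlap that of Cryab and 1, Crybb1, overlaps that of Cryba4. The files do not place the probes within these spans.

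A mean profile of Cryba4 and Bfsp1 over the 9 arrays was compared with the 2965 tested genes that ranged over at least 1 log2 unit. The 5 closest, by root mean square distance on the centred log2 scale, were Sult2b1, Fam71e1, Rps6kc1, 4933432K03Rik and Pcdh20, at distances of 0.20 to 0.26, while the profile itself had a root mean square of 0.73. Sult2b1, a sulfotransferase of cholesterol, was at 7.50, 49.7 and 35.6 in SJL, and at 4.56 to 7.90 on the 6 other arrays. Rps6kc1 was at 61.6, 170 and 93.5 in SJL, and at 22.1 to 47.5 on the others. After each strain was centred on its own mean, which leaves the spread among mice of a strain, the 5 closest were Ncapg, Tagln2, Ms4a10, Esco2 and Tk1, at 0.08 to 0.10 against 0.38 for the profile. Ncapg, a condensin subunit, was at 328, 1046 and 546 in SJL, against 1127 to 1242 in KS and 1073 to 1356 in B6, so its SJL arrays were below the others and not above them. Tk1, a thymidine kinase, was at 365, 910 and 619 in SJL, against 829 to 855 in KS and 810 to 906 in B6. These genes were chosen for this closeness, so it is a description.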

How the data were processed

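Probe set intensities on a linear scale were deposited by the authors, already summarised over probes. Upper quartiles of 380 to 398 on the 9 arrays show that the arrays had been brought close to one another. The summary, background and scaling methods are not given in the sources used here, and no detection calls were used. The table held 45101 probe sets, 64 of them controls. Of the other 45037, 34945 had 1 gene symbol, 932 several and 9160 none. All 10 genes matched the RefSeq gene table by symbol.

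From these values log2(intensity + 10) was computed, and the dimmer part of the non-control probe sets, under a mean of 4.17, was dropped. This kept 22519 probe sets (10956 genes by their brightest one). Strain means were fitted over all 9 arrays with limma 3.58.1 in R 4.3.3, two-sided, with 6 residual degrees of freedom and Benjamini-Hochberg adjustment over all probe sets tested; called means an adjusted p under 0.05. The model was tested on simulated data for KS against B6, over 22519 probe sets. It recovered 19.4% of 67 probe sets given a log2 difference of 0.5. At a log2 difference of 1 it recovered 70.1% of 67, and at 2 it recovered 92.4% of 66. There were 8 false calls. Most differences of 0.5 were thus missed. Tabulation used Python 3.11.15 with pandas 2.3.3, and plots matplotlib 3.10.9. Read depth has no meaning for arrays, and having 3 arrays a strain limits the precision. The labels give each array as 1 mouse.

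The genes, lists and naming rule were chosen with earlier results of these data known. Named were all 10 genes, called members of the related lists or else the brightest 2, chromosomal neighbours, and the 5 genes closest in profile. Any further gene was picked with its values known. The alternatives were other filters, scalings and pseudocounts, an intensity trend, array weights, a block for the replicate number, a fit of only the 6 arrays compared, other gene values, and each array left out. An exact permutation test of 3 against 3 cannot go below 0.1 and was not used.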

Additional observations from a re-analysis of the deposited data

How the results depend on the processing

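Without each array in turn, SJL minus KS ran from 0.91 to 1.57 for Bfsp1, from 1.04 to 2.01 for Cryba4 and from -0.40 to -0.28 for Cryab, and SJL minus B6 from 0.93 to 1.59 for Bfsp1 and from 0.79 to 1.75 for Cryba4. The lowest Bfsp1 and Cryba4 values were without SJL replicate 2 and the highest without SJL replicate 1. With a pseudocount of 50 Bfsp1 differed by 0.69 from KS and 0.70 from B6, and Cryba4 by 0.65 and 0.58; with a pseudocount of 1 Cryba4 differed by 2.62 and 2.01, as the scale of low values sets. Cryab in SJL minus KS was -0.21 with array weights and -0.46 with the mean of its probe sets, which also called 1 of the 3 lens genes in KS against B6. Among the 4 regulators tested, array weights called 2 in SJL against KS and 2 in SJL against B6, a setting that called 9450 and 7364 of all 22519 probe sets there, against 3489 and 3605 without it, leaving out SJL replicate 1 called 1 and 1, and the intensity trend and the replicate block called 1 each in SJL against B6; the cause was not tested. The small heat shock call became 0 in every contrast with the filter at the 70th percentile, which drops Hspb8, and 0 in SJL against B6 with a pseudocount of 50. The replicate numbers share no stated batch: same-numbered arrays of different strains correlated at -0.27 to 0.26, and over all probe sets in KS against B6 the block gave 1124 calls, against 1286 without it. It changed no other call described here. The low signal of 7 of the 10 genes limits what can be said of them to upper bounds.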
